A study of Rattus norvegicus with 12 samples.

Results

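The executors of necroptosis and pyroptosis, which are forms of cell death in which the cell membrane ruptures, were followed in rat kidney as 10 named genes. They were Mlkl, Ripk1, Ripk3, Zbp1, Casp1, Casp4, Casp8, Gsdmd, Nlrp3 and Pycard. They were found by gene symbol, which the deposited annotation gives for the 20455 genes with reads of the 30208 Ensembl genes counted. Each symbol matched 1 gene, and all 10 were among the 14664 genes with enough reads to be tested. RNA was sequenced from 12 kidney samples in 3 groups of 4. The CPB+Nitrite group had cardiopulmonary bypass (CPB, circulation through a heart-lung machine) together with nitrite, the CPB group had bypass alone, and the sham group was the control. The labels give no strain, sex, age, nitrite dose, duration of bypass or time of sampling. Nor do they state that the 4 replicates of a group were separate animals, so p-values measure only the spread between these samples.

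In necroptosis, signals from death receptors, Toll-like receptors or the nucleic-acid sensor ZBP1 reach the kinase RIPK3, for death receptors through the kinase RIPK1. RIPK3 then phosphorylates MLKL, which breaks the plasma membrane. Caspase-8 restrains this route by cleaving the kinases and is itself the initiator of death-receptor apoptosis. In pyroptosis, sensors such as NLRP3 use the adapter ASC, encoded by Pycard, to activate caspase-1, while rodent caspase-4 (also called caspase-11) responds to bacterial lipopolysaccharide inside the cell. These inflammatory caspases cleave gasdermin D, encoded by Gsdmd, whose freed part forms pores. Several of these genes are known to be induced by interferon. The RNA levels below do not measure cleavage or phosphorylation of the proteins.

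Library totals ran from 16.8 M to 25.8 M estimated reads, and levels are given as counts-per-million (CPM) scaled with edgeR's TMM factors. All 10 markers of kidney tubule and glomerulus were detected in every library. CPB+Nitrite libraries resembled their own group least, with a median correlation of 0.918 to 0.947 across genes, against 0.973 to 0.98 in CPB and 0.966 to 0.977 in sham. CPB+Nitrite 2 stood apart, and its 10 endothelial markers summed to 2460 CPM, against 145 to 419 CPM in the other 11 libraries. A sum of urothelial and adipocyte markers was 429 CPM in sham 1, against 30 to 180 CPM in CPB+Nitrite, 22.5 to 43.9 CPM in CPB and 24.8 to 109 CPM in sham 2 to 4. Of the 10 genes, 7 had at least 78 reads in every library, Zbp1 had 13 to 291, Nlrp3 had 5 to 31 and Pycard had 3 to 59.

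Start-of-gene sequences are shown because several of these genes moved together and are known interferon targets. RefSeq windows of 250 bases before the gene start (build GRCr8) were found for 6 of the 10 genes, and 3 of them follow, 5′ to 3′ on the strand of the gene. Capitals mark a match to the interferon-stimulated response element. That motif was searched as GAAA, any 2 bases and GAAA again, on both strands.
Casp1, chr8:10872580-10872829, plus strand: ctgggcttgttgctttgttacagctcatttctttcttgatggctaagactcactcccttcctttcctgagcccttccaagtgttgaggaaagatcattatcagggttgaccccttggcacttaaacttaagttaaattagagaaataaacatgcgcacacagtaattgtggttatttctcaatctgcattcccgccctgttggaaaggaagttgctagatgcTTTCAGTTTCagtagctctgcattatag
Mlkl, chr19:56213859-56214108, minus strand: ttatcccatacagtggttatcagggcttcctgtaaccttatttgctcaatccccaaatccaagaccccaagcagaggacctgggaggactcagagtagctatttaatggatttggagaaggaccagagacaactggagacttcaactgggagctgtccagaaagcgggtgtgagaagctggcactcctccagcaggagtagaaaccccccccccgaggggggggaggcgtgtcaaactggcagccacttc
Ripk3, chr15:33262026-33262275, minus strand: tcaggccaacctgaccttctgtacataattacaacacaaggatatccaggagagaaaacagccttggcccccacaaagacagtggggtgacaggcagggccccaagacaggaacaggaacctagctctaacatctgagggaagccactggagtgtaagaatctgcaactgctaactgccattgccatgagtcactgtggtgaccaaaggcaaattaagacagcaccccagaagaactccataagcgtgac

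Casp1 alone among the 6 windows (Mlkl, Ripk1, Ripk3, Casp1, Nlrp3 and Pycard) held the interferon-stimulated response element, read on the opposite strand, with its first printed base 28 bases before the gene start. The same letters were in 3.41% of 33469 windows of this length, and in 9 of the 16 windows found for a list of interferon-stimulated genes. The STAT element TTCNNNGAA matched the Nlrp3 window once, 121 bases before the start, and was in 7.67% of all windows. The NF-kappaB letters, GGGA then any base then TTTCC, matched none of the 6 windows and 0.314% of all. These matches describe letters in 1 annotated window per gene and are not measured binding sites.

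CPB versus sham asked what bypass did to these transcripts. Of the 10 genes 8 rose and none fell (edgeR quasi-likelihood F test, adjusted p under 0.05 after Benjamini-Hochberg correction), and Nlrp3 and Pycard did not pass. Among all genes tested 21.7% were called higher and 21.5% lower, 3184 and 3148 genes, and with scaling by total counts 2281 and 4269. The largest rises were those of Zbp1, Ripk3, Casp4 and Mlkl, from 12.5-fold to 6.2-fold, and the others were 2-fold to 2.81-fold. The median log2 change was 1.48 over the 10 genes and -0.05 over all genes. For the same 8 genes every CPB library lay above every sham library, which was so, in that direction, for 23.5% of all genes. These 8 calls were kept under all 21 alternative analyses, the removal of each library in turn included. DESeq2 called 25.1% of all genes higher and limma voom 29.7%, and over the removals the share was 16% to 25%. The 10 genes were chosen with earlier results of these data known, so their count beside these shares is a description and not a test.

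CPB+Nitrite versus CPB asked what nitrite changed on bypass, and no gene of the whole table passed by edgeR (4315 had an unadjusted p under 0.05). Zbp1, Casp4 and Mlkl had the most negative values, and Casp1, Gsdmd and Nlrp3 had values at 0 or 0.01 on the log2 scale. An unadjusted p under 0.05 was reached by 5 of the 10 (Zbp1, Casp4, Casp8, Mlkl and Ripk1), all negative, where 12.2% of all genes were negative at that level. For Zbp1, Casp4 and Casp8 every CPB+Nitrite library lay below every CPB library, which held in that direction for 6.27% of all genes. DESeq2 called Zbp1, Casp4, Casp8 and Mlkl lower (6.18% of all genes) and limma voom with sample weights called none (0% lower). Without CPB+Nitrite 1, the only removal that gave a call among the 10, edgeR called 5 of them lower, against 8.67% of all genes. The count of 0 thus changed both with the method and with the removal of that library, and the cause was not tested.

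**Figure D1:**
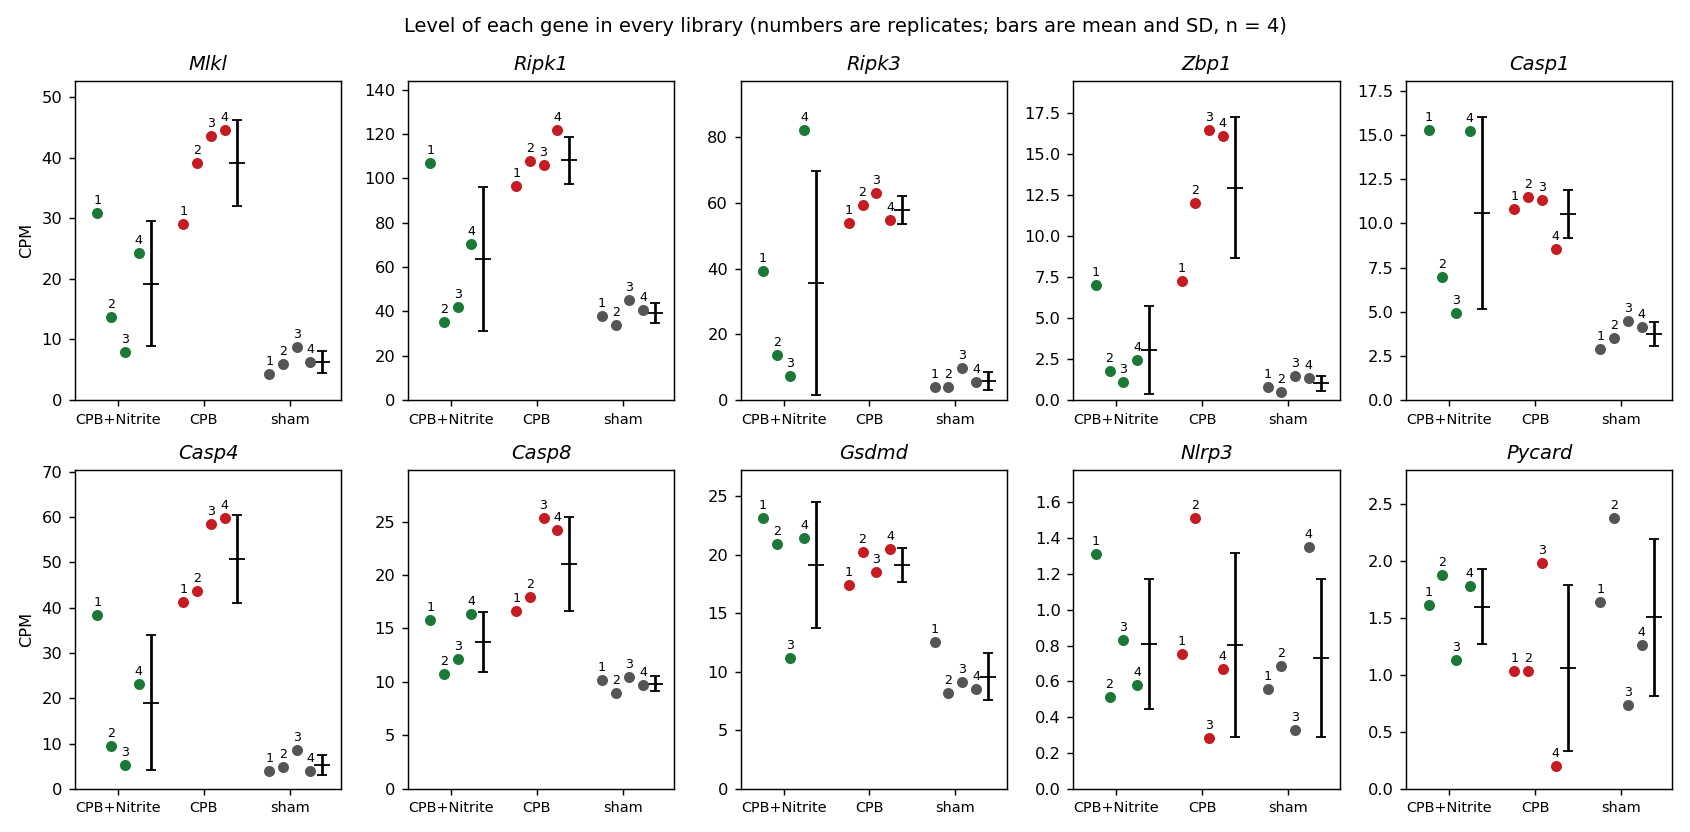
CPM of each of the 10 genes (vertical axes, linear and starting at 0) in the 12 libraries, with the groups CPB+Nitrite, CPB and sham from left to right, points numbered by replicate and black bars for mean and SD (n = 4). The CPB points of 8 genes lie above all sham points, the CPB+Nitrite points are spread widely, and those of Nlrp3 and Pycard overlap in all groups at low levels.

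The upstream sensor Zbp1 (ENSRNOG00000006314, chromosome 3, 161993351 to 162003870, minus strand, build mRatBN7.2) recognises left-handed nucleic acids. Zbp1 was at 7.01, 1.76, 1.08 and 2.45 CPM in CPB+Nitrite 1 to 4, 7.27, 12, 16.5 and 16.1 CPM in CPB 1 to 4, and 0.782, 0.523, 1.47 and 1.35 CPM in sham 1 to 4. Every CPB+Nitrite library was below every CPB library, although CPB+Nitrite 1 and CPB 1 were nearly level, and CPB+Nitrite 3 was within the sham range. In CPB versus sham Zbp1 rose by 3.65 on the log2 scale (standard error 0.57, edgeR adjusted p = 0.00117), a value above that of 99.2% of all genes tested. Its log2 difference in CPB+Nitrite versus CPB was -2.07 (95% interval -3.21 to -0.93, edgeR adjusted p = 0.0584), and without CPB+Nitrite 1 it was -2.91 (edgeR adjusted p = 0.00581). Over the 21 alternative analyses this difference ran from -2.91 to -1.79, and no other removal gave a call.

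The kinase gene Ripk1 (ENSRNOG00000017787, chromosome 17, 30839650 to 30871824, minus strand) encodes the scaffold below death receptors. Ripk1 was at 107, 35.4, 42 and 70.4 CPM in CPB+Nitrite 1 to 4, 96.6, 108, 106 and 122 CPM in CPB 1 to 4, and 38, 33.8, 45 and 40.5 CPM in sham 1 to 4. CPB+Nitrite 1 was at the CPB level, CPB+Nitrite 2 and 3 were at the sham level, and CPB+Nitrite 4 lay between. Ripk1 rose by 1.46 in CPB versus sham (standard error 0.28, edgeR adjusted p = 0.00256). Its difference in CPB+Nitrite versus CPB was -0.76 (95% interval -1.37 to -0.16, edgeR adjusted p = 0.102), and -1.17 without CPB+Nitrite 1 (edgeR adjusted p = 0.0109). The 21 alternatives gave -1.17 to -0.56, and only that removal gave a call. At its 5′ end 357 bases of Ripk1 overlap Serpinb6a on the other strand, which was at 54 ± 4.05 CPM in CPB and 46.1 ± 6.96 CPM in sham (SD, n = 4 each; edgeR adjusted p = 0.395). The library kit was directional per the labels, and whether counting used strand is not given in the sources used here.

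Ripk3 (ENSRNOG00000020465, chromosome 15, 29283145 to 29292121, minus strand), the kinase that activates MLKL, varied most in CPB+Nitrite. Ripk3 was at 39.3, 13.6, 7.35 and 82.2 CPM in CPB+Nitrite 1 to 4, 53.8, 59.2, 63.1 and 54.7 CPM in CPB 1 to 4, and 4.1, 3.86, 9.77 and 5.46 CPM in sham 1 to 4. CPB+Nitrite 4 was above every CPB library, and CPB+Nitrite 3 was below sham 3. The SD was 95.5% of the mean in CPB+Nitrite, 7.43% in CPB and 47.3% in sham. Ripk3 rose by 3.31 in CPB versus sham (standard error 0.62, edgeR adjusted p = 0.00218), and its difference in CPB+Nitrite versus CPB was -0.7 (95% interval -1.91 to 0.52, edgeR adjusted p = 0.409). It was -1.52 without CPB+Nitrite 4 (edgeR adjusted p = 0.0693), -0.43 without CPB+Nitrite 2 and -0.36 without CPB+Nitrite 3.

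Mlkl (ENSRNOG00000042353, chromosome 19, 39276785 to 39304502, minus strand) encodes the protein that permeabilises the membrane at the end of the route. Mlkl was at 30.9, 13.7, 7.89 and 24.2 CPM in CPB+Nitrite 1 to 4, 29, 39.1, 43.6 and 44.6 CPM in CPB 1 to 4, and 4.25, 5.91, 8.79 and 6.24 CPM in sham 1 to 4. CPB+Nitrite 1 was within the CPB range, CPB+Nitrite 3 within the sham range and the other 2 between them. The difference of Mlkl in CPB+Nitrite versus CPB was -1.02 (95% interval -1.79 to -0.26, edgeR adjusted p = 0.091), and -1.39 without CPB+Nitrite 1 (edgeR adjusted p = 0.0214). Across the 21 alternatives it was -1.39 to -0.77, and no other removal gave a call. Mlkl rose by 2.63 in CPB versus sham (standard error 0.38, edgeR adjusted p = 0.00101).

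Casp8 (ENSRNOG00000012331, chromosome 9, 60264075 to 60312542, plus strand), whose protein restrains necroptosis, had a smaller range. Casp8 was at 15.8, 10.7, 12.1 and 16.4 CPM in CPB+Nitrite 1 to 4, 16.6, 17.9, 25.3 and 24.2 CPM in CPB 1 to 4, and 10.2, 8.93, 10.5 and 9.72 CPM in sham 1 to 4. The 3 groups did not overlap, with CPB+Nitrite between CPB and sham. Casp8 rose by 1.09 in CPB versus sham (standard error 0.19, edgeR adjusted p = 0.00174). Its difference was -0.61 in CPB+Nitrite versus CPB (95% interval -1.02 to -0.2, edgeR adjusted p = 0.0747), and -0.72 without CPB+Nitrite 1 (edgeR adjusted p = 0.0335). Over the 21 alternatives that difference ran from -0.73 to -0.48, and no other removal gave a call.

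**Figure D2:**
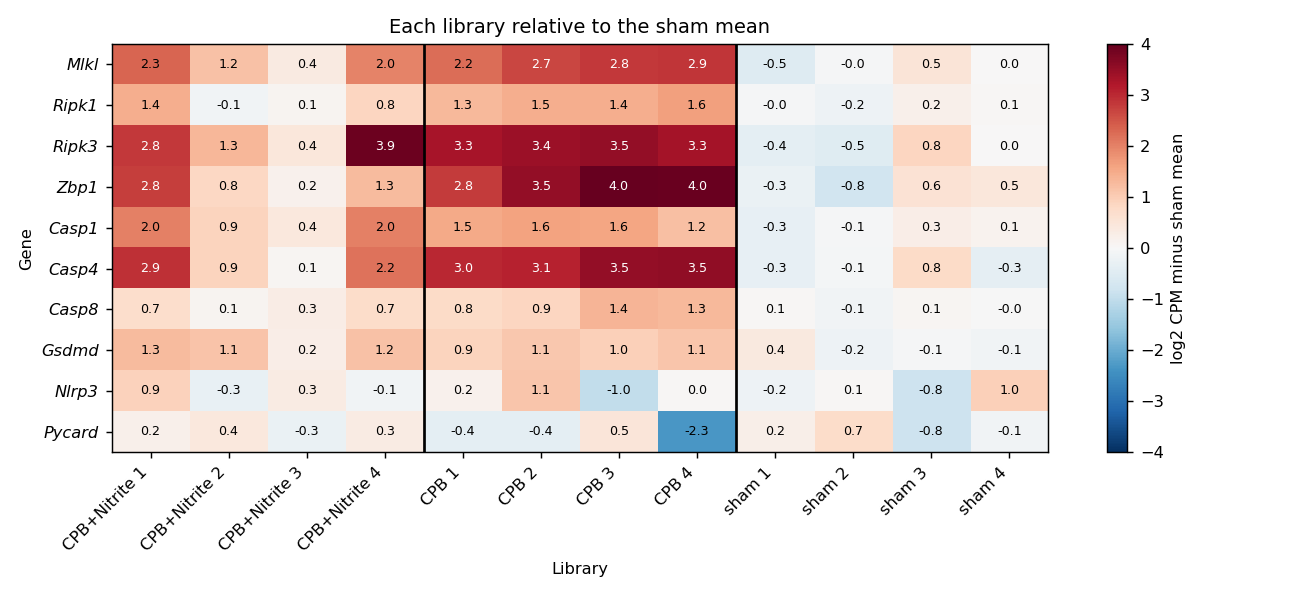
Log2 CPM of each gene (rows) minus its sham mean in each library (columns, CPB+Nitrite, CPB and sham from left to right), printed in each cell and coloured from blue (lower) to red (higher). CPB+Nitrite 1 and 4 are near the CPB libraries for several genes, CPB+Nitrite 3 is near sham, and Ripk3 in CPB+Nitrite 4 is at 3.91.

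The inflammatory caspase genes Casp4 (ENSRNOG00000033697, chromosome 8, 2598876 to 2635092, plus strand) and Casp1 (ENSRNOG00000007372, chromosome 8, 2587831 to 2597383, plus strand) are neighbours with 1492 bases between them. Casp4 was at 38.3, 9.45, 5.29 and 23.1 CPM in CPB+Nitrite 1 to 4, 41.2, 43.6, 58.5 and 59.7 CPM in CPB 1 to 4, and 3.95, 4.79, 8.59 and 3.92 CPM in sham 1 to 4. Every CPB+Nitrite library was below every CPB library, CPB+Nitrite 1 only slightly, and CPB+Nitrite 3 was within the sham range. Casp1 was at 15.3, 6.96, 4.95 and 15.2 CPM in CPB+Nitrite 1 to 4, 10.8, 11.5, 11.3 and 8.57 CPM in CPB 1 to 4, and 2.9, 3.54, 4.46 and 4.11 CPM in sham 1 to 4. For Casp1, CPB+Nitrite 1 and 4 were above every CPB library, CPB+Nitrite 2 and 3 were below every CPB library, and all 8 were above every sham library.

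In CPB versus sham Casp4 rose by 3.25 (standard error 0.52, edgeR adjusted p = 0.00126) and Casp1 by 1.49 (standard error 0.33, edgeR adjusted p = 0.00493). The difference of Casp4 in CPB+Nitrite versus CPB was -1.41 (95% interval -2.46 to -0.36, edgeR adjusted p = 0.0891), and -2.04 without CPB+Nitrite 1 (edgeR adjusted p = 0.0148). Across the 21 alternatives it was -2.04 to -1.11, and no other removal gave a call. The difference of Casp1 in that comparison was 0.01 (95% interval -0.7 to 0.71, edgeR adjusted p = 0.992). The ratio of Casp4 to Casp1 CPM within a library was 2.5, 1.36, 1.07 and 1.52 in CPB+Nitrite 1 to 4, 3.81, 3.79, 5.16 and 6.97 in CPB 1 to 4, and 1.36, 1.35, 1.93 and 0.953 in sham 1 to 4. All CPB ratios were above those of the other 2 groups. The ratio was chosen after these values were seen and was not tested, and since CPM is not divided by transcript length it compares libraries and not the level of Casp4 with that of Casp1.

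Gsdmd (ENSRNOG00000007728, chromosome 7, 107542083 to 107547055, plus strand) encodes the pore-forming gasdermin D. Gsdmd was at 23.1, 20.9, 11.2 and 21.4 CPM in CPB+Nitrite 1 to 4, 17.4, 20.2, 18.5 and 20.5 CPM in CPB 1 to 4, and 12.5, 8.17, 9.12 and 8.56 CPM in sham 1 to 4. CPB+Nitrite 1, 2 and 4 were above every CPB library, and CPB+Nitrite 3 was below sham 1. Gsdmd rose by 1 on the log2 scale in CPB versus sham (standard error 0.22, edgeR adjusted p = 0.00484), and its difference in CPB+Nitrite versus CPB was 0 (95% interval -0.47 to 0.48, edgeR adjusted p = 0.996).

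The sensor gene Nlrp3 (ENSRNOG00000003170, chromosome 10, 44328566 to 44352811, plus strand) and the adapter gene Pycard (ENSRNOG00000019675, chromosome 1, 182601174 to 182602955, minus strand) were low in all groups. Nlrp3 was at 1.31, 0.513, 0.833 and 0.578 CPM in CPB+Nitrite 1 to 4, 0.751, 1.51, 0.283 and 0.67 CPM in CPB 1 to 4, and 0.559, 0.684, 0.327 and 1.35 CPM in sham 1 to 4. Pycard was at 1.61, 1.87, 1.13 and 1.78 CPM in CPB+Nitrite 1 to 4, 1.03, 1.03, 1.98 and 0.201 CPM in CPB 1 to 4, and 1.64, 2.37, 0.736 and 1.26 CPM in sham 1 to 4. Their groups overlapped in every comparison. In CPB versus sham the log2 difference was 0.15 for Nlrp3 (95% interval -1.03 to 1.34) and -0.49 for Pycard (95% interval -1.62 to 0.63). A rise of Nlrp3 of the size found for Gsdmd lies within its interval, so the missing call does not show that Nlrp3 was unchanged. The part of read number in this was not tested.

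CPB+Nitrite versus sham compared bypass with nitrite with the controls, and its values share the sham libraries with CPB versus sham. Of the 10 genes 4 were called higher by edgeR, Mlkl, Ripk3, Casp1 and Gsdmd, against 3.85% of all genes higher and 0.955% lower. The log2 changes were 1.61 for Mlkl, 2.62 for Ripk3, 1.5 for Casp1 and 1 for Gsdmd, with adjusted p from 0.0387 to 0.0402. Casp4 was at 1.84 (edgeR adjusted p = 0.0525), Zbp1 at 1.58 (0.0942), Ripk1 at 0.7 (0.135) and Casp8 at 0.48 (0.131). Without CPB+Nitrite 1 Zbp1 was at 0.77 and Ripk1 at 0.31, neither past the threshold. The median over the 10 genes was 1.25, and that over all genes 0.04. Every CPB+Nitrite library lay above every sham library for Casp1 and Casp8, which was so for 5.64% of all genes.

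Those 4 calls were close to the threshold and were lost on removal of most single libraries. No gene of the 10 passed without CPB+Nitrite 1 or 4, without sham 1, 2 or 4, or without any 1 of the 4 CPB libraries, which share the filter, scaling and estimate of spread; 0% to 1.59% of all genes were called higher in those fits. Without sham 3 the count was 3 (Mlkl, Ripk3 and Casp1; 2.62% of all genes), without CPB+Nitrite 2 it was 6 (8.96%) and without CPB+Nitrite 3 it was 7 (10.9%). A fit of these 2 groups alone gave 0, and so did a fit with the replicate number as a block. Without any 1 of the CPB libraries Mlkl stayed at 1.6 to 1.61 and Ripk3 at 2.6 to 2.62. The edgeR adjusted p of the 4 genes was then 0.0507 to 0.0638. Without CPB+Nitrite 1 Mlkl was at 1.27, and without CPB+Nitrite 4 Ripk3 was at 1.8.

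**Figure D3:**
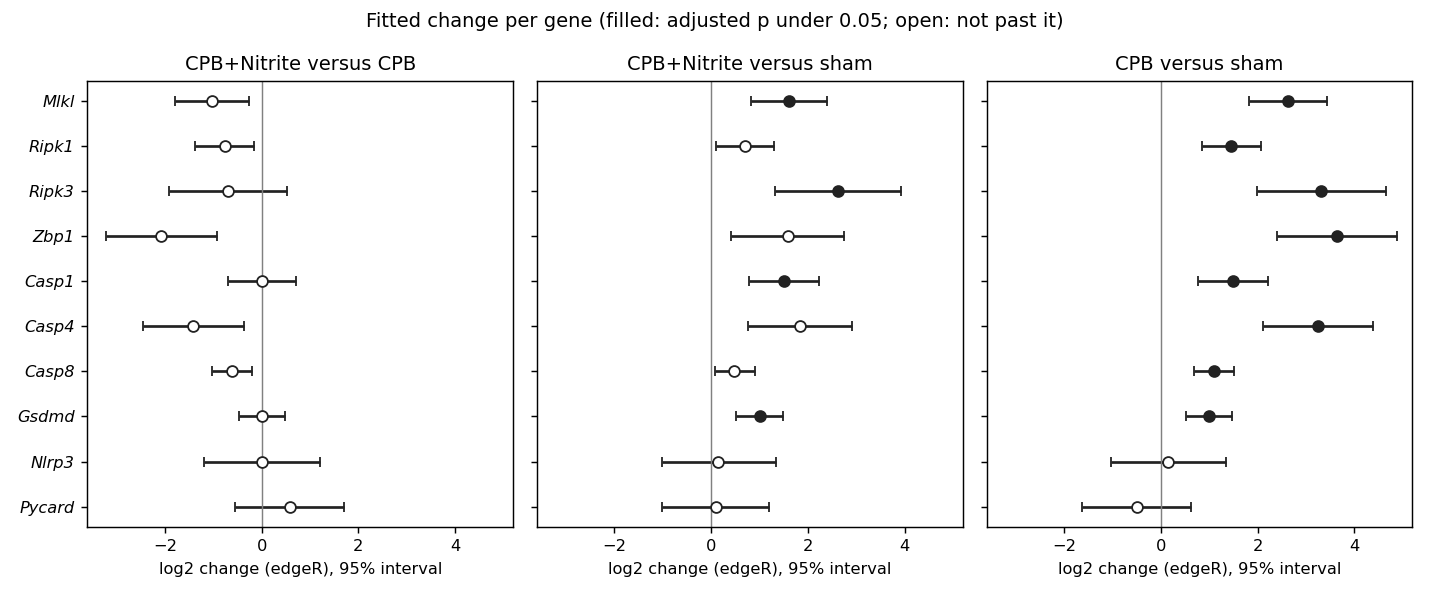
Log2 change of each gene (rows) with its 95% interval by edgeR in the 3 comparisons, with filled points for an adjusted p under 0.05. In CPB versus sham 8 points are filled, in CPB+Nitrite versus sham 4 and in CPB+Nitrite versus CPB none, where Zbp1 is at -2.07 and Gsdmd at 0.

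Genes around these executors were read from 3 lists of regulators, sensors and outputs and from a list of interferon-stimulated genes. Among 29 tested regulators of death receptors and necroptosis 17 rose and none fell in CPB versus sham (median 0.68). Over all genes 21.7% rose and 21.5% fell in that comparison, with a median of -0.05. The counts of the other lists below are to be read beside the same shares, and all the lists were chosen with earlier results of these data known. Tnfsf10, which encodes the death ligand TRAIL, averaged 28.3 ± 20.9 CPM in CPB+Nitrite, 99.8 ± 29 CPM in CPB and 6.84 ± 2.81 CPM in sham (SD, n = 4 each), a rise of 3.86 in CPB versus sham. Birc2, which ubiquitinates RIPK1, rose by 2.03. Adar, which edits double-stranded RNA and so limits ZBP1 activation, rose by 1.97, and Mapkapk2, a kinase that phosphorylates RIPK1, by 1.38 (edgeR adjusted p from 0.000999 to 0.00107 for these 4).

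Of 23 tested sensors and regulators of inflammasomes 12 rose and 2 fell (median 1.1). The caspase gene Casp12 rose by 2.77, the guanylate-binding protein gene Gbp4 by 4.1 and the transcription factor Irf2, an activator of Gsdmd transcription, by 1.44. Nlrp6, a sensor of the NLR family, fell by 1.86 and was at 45.2 ± 26.5 CPM in CPB+Nitrite, 26.5 ± 5.07 CPM in CPB and 96.2 ± 8.67 CPM in sham (SD, n = 4 each). The other gene of this list that fell was Mefv, which encodes pyrin, by 2.03. Naming Mefv, and Gsdme and Sigirr below, was decided after their values were seen, as each was 1 of a count of 2.

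Of 17 tested outputs of pyroptosis and other gasdermins 8 rose and 2 fell (median 0.66). The antagonists Il1rn, which blocks the interleukin 1 receptor, and Il18bp, which binds interleukin 18, rose by 2.15 and 2.6. Ninj1, which mediates final membrane rupture, rose by 0.66. Gsdme, which encodes another pore-forming gasdermin, fell by 1.86, and Sigirr, a negative regulator of interleukin 1 family receptors, by 0.48. The call of Sigirr was lost without sham 1, 2 or 3 and without CPB 2, 3 or 4. All 22 tested interferon-stimulated genes rose, and the 4 with the smallest p were Ifit2 (5.68), Cmpk2 (5.17), Oasl (4.62) and Irf7 (4.29).

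No gene of these lists in CPB+Nitrite versus CPB went past the threshold by edgeR, as in the whole table. The medians were -0.5 for the necroptosis regulators, -0.42 for the inflammasome list, -0.11 for the outputs and -1.7 for the interferon-stimulated genes, against 0.05 for all genes. An unadjusted p under 0.05, in either direction, was reached by 14 of 29, 9 of 23, 3 of 17 and 21 of 22 genes, against 29.4% of all genes. DESeq2 called 7 of the 29 necroptosis regulators lower, 4 of the 23 inflammasome genes lower (Nlrp1a, Gbp4, Irf2 and Casp12) and 1 higher (Mefv), 2 of the 17 outputs lower and 18 of the 22 interferon-stimulated genes lower. It called 6.18% of all genes lower and 9.15% higher. Without CPB+Nitrite 1, edgeR called 12 necroptosis regulators lower and 1 higher (Stub1), 9 inflammasome genes lower and 2 higher (Mefv and Nlrp6), 3 of 18 outputs lower and 16 interferon-stimulated genes lower. The shares of all genes in that fit were 8.67% lower and 10.6% higher. Those of these genes that the rule for names does not cover were named after their values were seen. Against sham, CPB+Nitrite had rises in 6 of 29, 6 of 23, 3 of 17 and 9 of 22 of these genes, and none fell. The shares of all genes in that comparison were 3.85% higher and 0.955% lower. None of the 4 lists had a call without CPB+Nitrite 4, without sham 1, 2 or 4, with the replicate block or in the fit of these 2 groups alone, and without CPB+Nitrite 1 the 4 lists together had 1 call.

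The mean log2 level of the 10 genes above the sham mean was 1.74, 0.63, 0.21 and 1.43 in CPB+Nitrite 1 to 4, 1.56 to 1.87 in CPB and -0.14 to 0.15 in sham. The interferon-stimulated genes stood at 3.11, 1.51, 0.48 and 2.81 in CPB+Nitrite 1 to 4, 3.24 to 4.29 in CPB and -0.64 to 0.94 in sham. CPB+Nitrite 1 and 4 were the higher libraries on both measures and CPB+Nitrite 3 the lowest. The order differed in the pyroptosis outputs, at 0.56, 0.24, 0.35 and 0.7 in CPB+Nitrite 1 to 4, where CPB+Nitrite 4 was highest and CPB+Nitrite 2 lowest. Within CPB+Nitrite 4, Ripk3 (3.91) and Zbp1 (1.27) were far apart on this log2 scale, whereas in CPB+Nitrite 1 they were at 2.84 and 2.76.

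**Figure D4:**
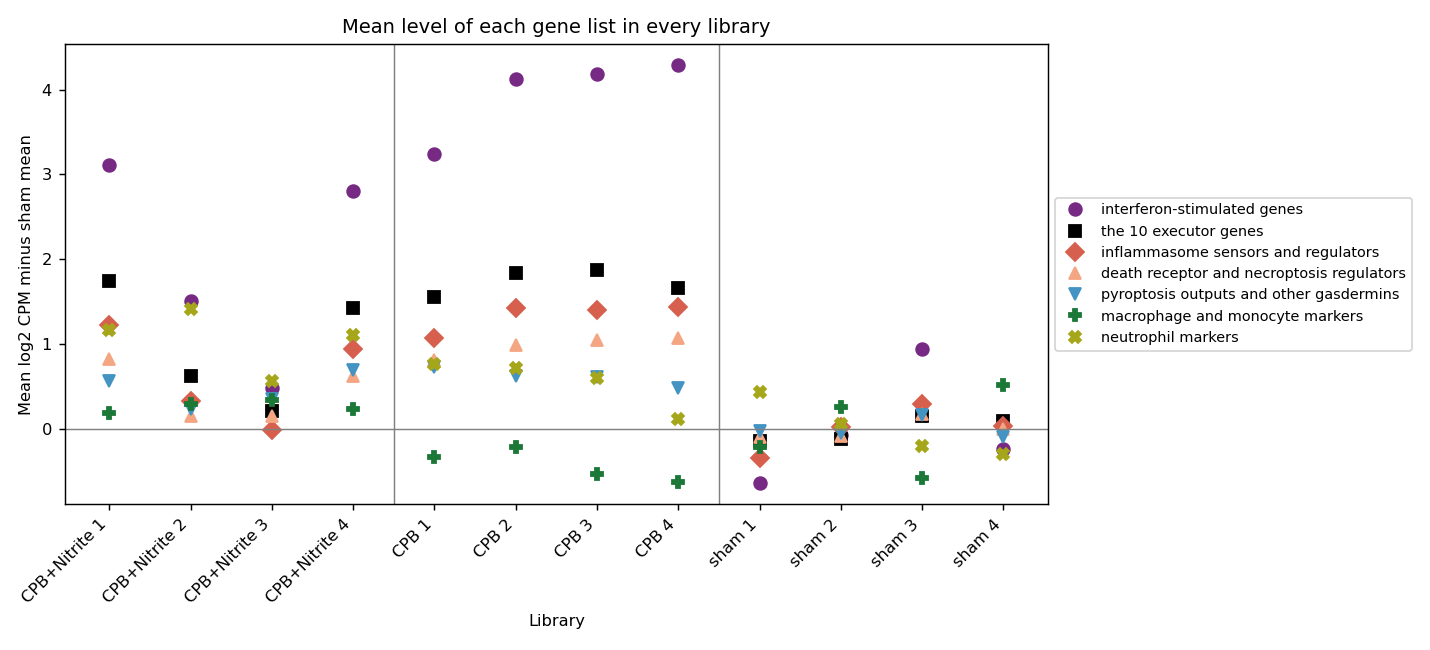
Mean log2 CPM minus the sham mean (vertical axis) over the genes of each list in each library (horizontal axis, CPB+Nitrite, CPB and sham from left to right), 1 symbol per list. The black squares of the 10 executor genes and the purple circles of the interferon-stimulated genes are high in all CPB libraries and in CPB+Nitrite 1 and 4. Macrophage and monocyte markers are at -0.62 to -0.21 in CPB and -0.58 to 0.52 in sham. Neutrophil markers are at 0.12 to 0.76 in CPB and -0.29 to 0.43 in sham.

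Leukocytes carry several of these transcripts, and in bulk kidney RNA fewer cells of a type and less RNA per cell cannot be told apart. Of 14 tested macrophage and monocyte markers 2 rose (Cd14 and Itgam) and 4 fell (Csf1r, Mrc1, Cx3cr1 and Lyz2) in CPB versus sham, and the summed level was 252 to 345 CPM in CPB+Nitrite, 171 to 235 CPM in CPB and 169 to 339 CPM in sham. Of 10 tested neutrophil markers 4 rose (S100a8, S100a9, Csf3r and Ngp) and 2 fell (Mpo and Ncf1), with sums of 25.7 to 38.6 CPM in CPB+Nitrite, 20.6 to 29.2 CPM in CPB and 15.2 to 23.4 CPM in sham, and Elane was at 0 in 11 of 12 libraries. Among 6 tested lymphocyte markers (T cells, B cells, natural killer cells) 3 rose (Cd8a, Prf1 and Gzmb), with sums of 6.42 to 13.4 CPM in CPB+Nitrite, 9.99 to 16.3 CPM in CPB and 3.8 to 5.67 CPM in sham. CPB and sham did not overlap in this last sum and overlapped in that of macrophages. Of 10 endothelial markers 2 rose (Cdh5 and Flt1) and 3 fell (Emcn, Tek and Ehd3), and of 10 urothelial and adipocyte markers none rose and 4 fell (Upk1b, Upk3a, Plin1 and Cfd). Of 10 kidney tubule and glomerulus markers none rose and 2 fell (Slc34a1 at -0.78 and Slc22a6 at -1.06 on the log2 scale). Among all genes 21.7% rose and 21.5% fell. The calls of Cd14, Csf1r, Mrc1, Cx3cr1, S100a8, S100a9, Csf3r, Ngp, Prf1, Gzmb, Cdh5, Slc34a1 and Slc22a6 were kept in each alternative that gave a value. Each other marker call was lost on removal of some single sham or CPB libraries. Neither neutrophil marker fell without sham 2 or without CPB 2, 3 or 4, no endothelial marker fell without sham 2 or 4 or without CPB 2, 3 or 4, and no urothelial or adipocyte marker fell without sham 1 or without CPB 2, 3 or 4. These marker genes were named after their values were seen. The part of these cells in the rise of the 8 genes was not tested.

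The genes with the pattern most like each member were found among 12153 named genes with a mean of at least 2 CPM, by the root mean square difference of centred log2 CPM over the 12 libraries. Mlkl lay closest to Sp100 (0.19) and Cnp (0.23), Casp4 to Psmb8 (0.21) and Parp9 (0.26), and Zbp1 to Gbp6 (0.34) and Dhx58 (0.38). For Ripk3 the closest genes were Birc3 (0.29) and Slfn2 (0.33), and for Casp1 they were Trim27 (0.23) and Serpinb9 (0.23). Ripk1 lay closest to Ugdh (0.12) and Rars1 (0.12), Casp8 to Tlk2 (0.07) and Cnot9 (0.07), and Gsdmd to Dtx2 (0.15) and Srebf1 (0.16). For comparison, the median over all those genes was 1.24 for Mlkl and 0.61 for Casp8, whose own SD over the libraries was 1.25 and 0.51 log2 units. Nlrp3 (Il10ra 0.37, C1qa 0.38) and Pycard (Olfml1 0.51, Limd2 0.51) had no gene as close relative to their SD of 0.66 and 0.82. Among the 10 genes themselves Casp8 and Ripk1 (0.32), Casp8 and Gsdmd (0.38), and Mlkl and Casp4 (0.39) were the closest pairs. These differences are not scaled to SD, and genes that vary little have small ones. The SD was 0.51 for Casp8 and 0.57 for Gsdmd. Zbp1 and Casp4, with an SD of 1.7 and 1.59, were at 0.47 and so closer relative to SD than Casp8 and Gsdmd.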

How the data were processed

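The estimated counts per Ensembl gene were made by the authors and are not normalised. Of the non-zero values 33.1% were not whole (tolerance 1e-06). Per the submitters' processing notes the tools included cutadapt 1.18 and Salmon 1.2.1 with build mRatBN7.2, and the library kit was directional per the labels' protocols. The second deposited table is a scaled signal, the same counts times 1 factor per library, set by the authors. It gave symbols and coordinates and an alternative scaling.

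Counts were rounded, filtered with edgeR's filterByExpr (minimum count 10, keeping 99.95% of reads), scaled by TMM and fitted over all 12 libraries with edgeR version 4.0.16 (R 4.3.3; functions glmQLFit, glmQLFTest, no covariates), two-sided, with Benjamini-Hochberg adjustment over 14664 genes at 0.05. Standard errors came from the F statistic. There were 4 replicates a group, and the biological coefficient of variation was 0.317. The part of depth in the precision was not tested. Log2 levels used a prior count of 2. Alternatives were RLE, total-count and the authors' factors, other filters, a replicate block, DESeq2 1.42.0, limma 3.58.1 voom, fits of 2 groups and the removal of each library.

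The genes and lists were chosen with earlier results of these data known. Named list genes are the 4 with the smallest p past the threshold in CPB versus sham. Some list genes are not reported here.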

Additional observations from a re-analysis of the deposited data

How the results depend on the processing

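The 8 calls in CPB versus sham, and those of the list genes named by the smallest p, were kept under all 21 alternatives, while the fall of Sigirr was lost in 6. The alternatives for the list genes and list counts were chosen after seeing the data. Over the removal of each library, all-gene calls (6332 with every library) ran from 4692 to 7574 in CPB versus sham, and the members called stayed at 8. With total-count scaling the all-gene median was -0.24 in place of -0.05 in CPB versus sham, and 0.17 in place of 0.05 in CPB+Nitrite versus CPB.

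In CPB+Nitrite versus CPB, members called ran from 0 to 5 and all genes from 0 to 2865 over the removals (4 genes without CPB 1). DESeq2 called 4 members and 2239 genes, and limma voom 1 gene. In CPB+Nitrite versus sham, removals gave 0 to 7 members and 0 to 2976 genes against 4 and 705, DESeq2 2171 genes and limma voom 2870. The replicate block gave 0 members and 28 genes, and the fit of 2 groups 0 and 0. The cause of these differences was not tested. The labels do not say whether numbers shared by replicates pair the samples, and they were not treated as pairs. Same-numbered libraries had correlations of deviations from -0.11 to 0.38, which cannot settle this. CPB 1, 3 and 4 each correlated best with the sham library of the same number, and CPB 2 did not. In CPB+Nitrite versus sham only CPB+Nitrite 2 did so, and in CPB+Nitrite versus CPB none did. The block changed no other call of a member.

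Values that changed sign were at 0 to 0.15 in the edgeR fit of all 12 libraries and were not called. Removals moved them further from 0, with the widest spread for Nlrp3. In CPB+Nitrite versus CPB, Casp1 was at -0.01 (RLE, no filter, DESeq2), -0.07 (block) and -0.26 to 0.24 (removals). Gsdmd was at -0.01 (RLE, DESeq2, voom), 0 (authors' factors), -0.02 (no filter), -0.04 (block) and -0.14 to 0.19 (removals). Nlrp3 was at -0.01 (RLE, no filter, DESeq2), 0 (authors' factors) and -0.37 to 0.48 (removals). In CPB versus sham Nlrp3 was at -0.03 (total counts) and -0.34 to 0.62 (removals). In CPB+Nitrite versus sham Nlrp3 was at -0.2 to 0.62 (removals), and Pycard at -0.01 (total counts) and -0.14 to 0.4 (removals, the lowest without sham 3). Under the filter at a mean of 2 CPM Nlrp3 and Pycard had no value. These 2 genes had 5 to 31 and 3 to 59 reads per library, and the part of depth in their spread was not tested.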
